A study of Mus musculus with 36 samples.

Results

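The comparison of Rescue with WT keratinocytes after 24 h in high calcium medium covered 6 of the 36 libraries, 3 from each line, chosen by the labels of line, time and medium. The keratinocytes are primary epidermal cells of newborn mice, whose Pkp4 allele was made in C57BL/6N. Its lacZ reporter was removed by breeding with FLPe mice of mixed B6 and SJL strain, and the offspring were crossed back to C57BL/6J. WT cells came from Pkp4+/+ pups, and Rescue cells were made from Pkp4-/- keratinocytes, which lack exon 9 of Pkp4 after recombination of a tm1b-derived allele. These received a lentiviral vector that encodes human PKP4 with EGFP at its N-terminus and a puromycin resistance gene, and were selected with puromycin. The Rescue line is labelled as an overexpressing line, none of the groups used here is labelled as carrying the vector without PKP4, and WT and knockout cells came from different pups. The vector, the selection, the amount of GFP-PKP4 and the origin of the cells therefore cannot be told apart in this comparison. Both lines had the same high calcium medium (HCM), which is low calcium medium (LCM) with CaCl2 added. The labels give 3 biological replicates per condition without saying whether these were separate pups or cultures. The p-values of edgeR therefore measure spread between libraries of a kind not stated. The fit estimated this spread over all 12 groups of 36 libraries, not from these 6 alone.

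PKP4 belongs to the p120-catenin family of armadillo proteins, which bind classical cadherins at adherens junctions and act on the enzymes that steer actin and myosin. Calcium lets cadherins engage between neighbouring keratinocytes, and cells moved to high calcium assemble junctions and start to differentiate. Differentiating keratinocytes replace basal keratins, load a cornified envelope of cross-linked small proteins, make barrier lipids and leave the cell cycle. The comparison asks in which genes cells given GFP-PKP4 on a knockout background still differed from WT cells.

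Library totals lay between 15520849 and 18295615 counts, and 3 counts in a library correspond to 0.149 to 0.216 CPM, which are reads scaled to the library size and TMM factor. No 2 libraries were copies of each other. WT replicate 2 stood apart, with a chi-square per gene of 121.08 and 105.69 against the other WT libraries, which differed from each other by 34.63, while the Rescue libraries differed by 12.98 to 23.05. All 10 keratinocyte markers were tested and none was called (edgeR), with log2 fold changes from -0.36 to 0.36. Fibroblast markers summed to between 1.44 and 11.6 CPM in Rescue and between 0.153 and 1.55 CPM in WT, with 2 of 5 tested higher, or 0 without Rescue replicate 2, WT replicate 2 or WT replicate 3 and 1 without Rescue replicate 1 or WT replicate 1. Of melanocyte markers 2 of 3 tested were higher, or 1 without any one library other than WT replicate 1, and Tyr and Tyrp1 were at 0 in all 6 libraries. The T cell marker Trdc was higher (27, 10 and 21 reads in Rescue against 6, 2 and 3), while Cd3d, Cd3e and Cd3g were at 0. The call of Trdc was lost without the filter and without any one library other than Rescue replicate 2. Neither of 2 tested macrophage and Langerhans cell markers was called, Cd207 being at 0, nor either of 2 endothelial ones, and of 5 Merkel cell markers Krt8 alone was. The part of such cells in the results was not tested. Fewer cells of a type and less RNA per cell cannot be told apart in such bulk libraries.

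Endogenous Pkp4 (ENSMUSG00000026991, chromosome 2 of GRCm39, 58991088 to 59185552, forward strand) had 6.52, 7.56 and 7.16 CPM in the Rescue libraries and 48.9, 41.6 and 41.5 CPM in the WT libraries. All Rescue values lay below all WT values, and the mean of 7.08 ± 0.523 CPM was 16.1% of the WT mean of 44.01 ± 4.27 CPM (SD, n = 3; log2 fold change -2.63 ± 0.17, adjusted p = 3.59e-12 in the quasi-likelihood test of edgeR). The row of the GFP-PKP4 transgene had 197, 219 and 168 CPM in Rescue and 2.47, 8.12 and 2.45 CPM in WT, from 48, 113 and 48 reads in WT. For each of these, the exact permutation test of 3 against 3 libraries gave p = 0.1, two-sided, the smallest value it can give. How reads that match both rows were counted is not stated.

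**Figure D1:**
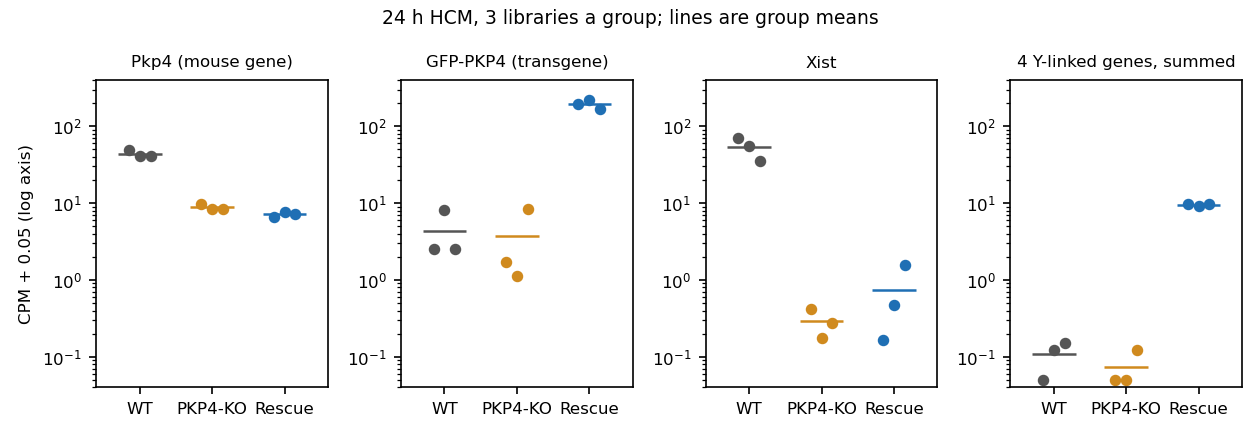
Levels in CPM plus 0.05 on a log axis of endogenous Pkp4, the GFP-PKP4 transgene, Xist and the sum of 4 Y-linked genes (Ddx3y, Eif2s3y, Kdm5d, Uty) at 24 h HCM. Each point is a library, with 3 per line, and each line is a group mean. Pkp4 was low and GFP-PKP4 high in Rescue, Xist was high in WT alone, and the Y-linked genes had reads in Rescue but next to none in WT and PKP4-KO.

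The lines also differed in sex-linked RNA. Xist, the RNA that coats the inactive X chromosome of female cells, had 1385, 763 and 697 reads in WT and 2, 8 and 31 in Rescue. The Y-linked gene Eif2s3y had 98, 83 and 95 reads in Rescue and 0, 0 and 1 in WT. Over the 12 libraries of each line, Ddx3y, Eif2s3y, Kdm5d and Uty together had 37 to 238 reads in Rescue, 0 to 12 in WT and 0 to 3 in PKP4-KO, and Xist had 0 to 37, 350 to 1385 and 0 to 13. Rescue libraries thus held Y-linked RNA that the PKP4-KO libraries did not. The part of this difference in the results was not tested.

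Of 15114 tested genes, 3503 (23.2%) were called between Rescue and WT at an adjusted p below 0.05, 1785 higher (11.8%) and 1718 lower (11.4%) in Rescue. Among them, 3273 were protein-coding. Members called in the gene lists below stand against these shares of all tested genes. The groups did not overlap in 5311 of all tested genes (35.1%) and in 3374 of the 3503 called ones. The call itself favours genes whose groups are apart, so that a lack of overlap given below for called genes is a description and no further support. At least 2-fold differences were seen in 996 of the higher and 678 of the lower genes, and at least 8-fold ones in 263 and 114. The median log2 fold change of all tested genes was -0.045. Without TMM factors it was 0.076, and 1876 genes were higher and 959 lower, so that the balance of the directions depended on this scaling and single values are read against the median.

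The 12 protein-coding genes with the highest log2 fold changes, among called genes averaging 1 CPM or more and without overlap, were low or absent in WT. Slc1a1, a glutamate and cysteine transporter on chromosome 19, 28812449 to 28891360, forward strand, was the most abundant of those described, with 93.6, 93.03 and 105 CPM in Rescue and 1.39, 0.647 and 0.357 CPM in WT (log2 fold change 6.903 ± 0.46, adjusted p = 9.40e-12, edgeR). No library of one line came near those of the other. The chemokine Ccl20, which attracts CCR6-bearing lymphocytes and dendritic cells, had 98, 72 and 163 reads in Rescue and 1, 1 and 0 in WT, a ratio of scaled counts of 156 with a 95% counting interval from 43.0 to 1297. Artn, a neurotrophic ligand of the GDNF family, had 93, 85 and 95 reads against 1, 0 and 0. Parvb, the focal adhesion protein beta-parvin, had 69, 26 and 63 reads against 2, 0 and 0. Others among them were Eif2s3y, the ciliary gene Evc2 (6.396 ± 0.38), Serp2, Mtus2 (5.69 ± 0.82), Lzts2 (5.61 ± 0.41), the X-linked Xlr3b (5.398 ± 0.36) and Lrrc32 (5.21 ± 0.58), which anchors latent TGF-beta at the cell surface; values are log2 fold changes with SE.

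At the other end, 7 of the 12 lowest genes lay in 1 cluster on chromosome 2, described further on. Txnip, which binds thioredoxin and restrains glucose uptake (chromosome 3, 96465267 to 96469201, forward strand), had 1.56, 1.22 and 0.894 CPM in Rescue and 58.1, 56.5 and 55.9 CPM in WT (log2 fold change -5.54 ± 0.40, adjusted p = 3.73e-11, edgeR). Vnn1, a pantetheinase, had 1.16, 0.793 and 1.59 CPM against 56.5, 48.6 and 48.6 CPM. In both genes the WT libraries were close to each other and far above every Rescue library. Cdh6, a classical cadherin, had 0.231, 0.159 and 0.248 CPM in Rescue and 10.1, 7.83 and 10.04 CPM in WT (-5.41 ± 0.55). Tbx18, a T-box transcription factor, had 1, 1 and 3 reads in Rescue and 110, 39 and 95 in WT, and the X-linked Nhsl2 had 0, 6 and 2 against 220, 89 and 144.

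**Figure D2:**
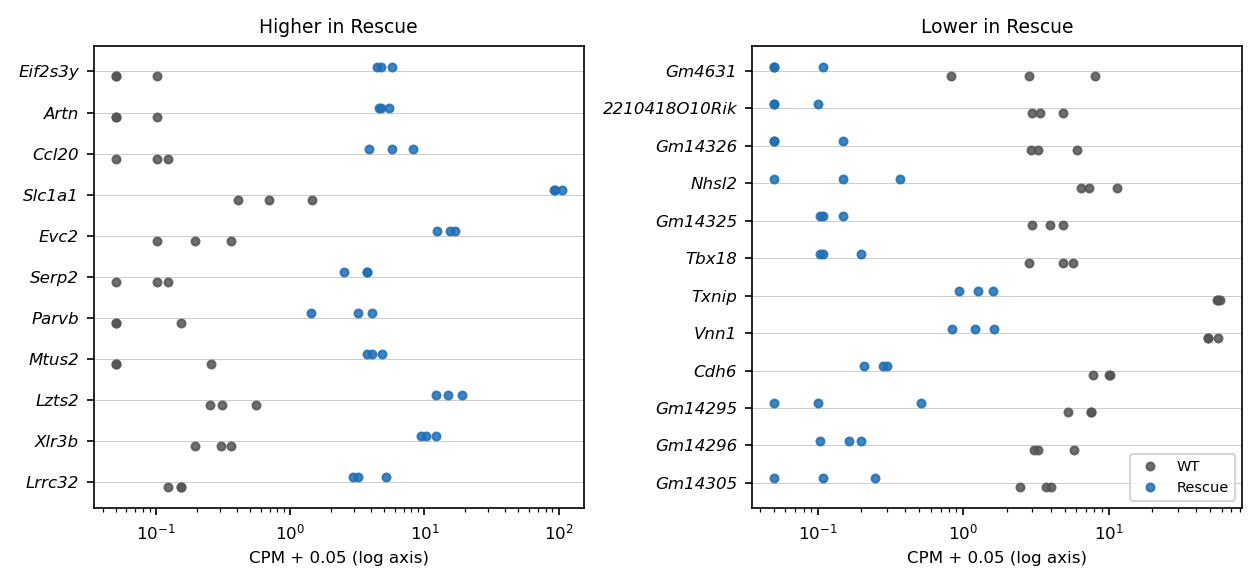
CPM plus 0.05 on log axes of 11 of the 12 highest (left) and the 12 lowest (right) protein-coding genes in Rescue against WT at 24 h HCM; each point is 1 of 3 libraries per line. The points of the lines are apart for all 23 genes, which the rule for choosing them required.

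Of 26 tested genes of the endoplasmic reticulum (ER) and integrated stress responses, 16 were higher and 0 lower in Rescue, with a median log2 fold change of 0.58. In these responses, kinases that sense unfolded protein or missing amino acids raise the translation of ATF4, which induces genes for amino acid supply and, with CHOP (Ddit3), for cell death or recovery. Trib3, a pseudokinase induced by ATF4 and CHOP (chromosome 2, 152179337 to 152191958, reverse strand), had 166, 177 and 107 CPM in Rescue and 19.4, 27.2 and 24.1 CPM in WT (log2 fold change 2.67 ± 0.19, adjusted p = 3.73e-11, edgeR). Ddit3 had 59.99, 76.5 and 44.3 CPM against 8.19, 13.1 and 12.7 CPM (2.41 ± 0.26). Chac1, which degrades glutathione, had 108, 103 and 82.3 CPM against 23.3, 27.3 and 22.6 CPM (2.004 ± 0.19). For all of them the lowest Rescue library was above the highest WT library. The cystine importer Slc7a11 (1.92 ± 0.28), the ER degradation factor Herpud1 (1.58), the mitochondrial folate enzyme Mthfd2 (1.52) and Atf4 itself (1.08) were also higher. A smaller increase was called for Asns, asparagine synthetase (0.43 ± 0.14, adjusted p = 0.0224, edgeR), with an adjusted p between 0.0518 and 0.114 without Rescue replicate 1, Rescue replicate 2, WT replicate 1 or WT replicate 2. The ER chaperones Hspa5 (0.28) and Calr (0.25) were not called. Without Rescue replicate 2 the number of higher members was 9, and without Rescue replicate 1 it was 10. Atf3, a further stress-induced factor of this family, had 7.56, 7.93 and 5.07 CPM in Rescue and 0.773, 1.87 and 1.38 CPM in WT (2.37 ± 0.31).

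ATF4 and CHOP bind composite elements that can be written as TGATGNAA. These letters, on either strand, occurred in the 250 bases before the start of 4 of the 24 listed genes with an entry in RefSeq's promoter table (16.7%), against 1.91% of 10577 tested genes with an entry and 3.45% of all 32851 promoters. The 4 genes were Herpud1, Asns, Chac1 and Slc7a11. The list was made of known genes of these responses, and called and uncalled members were counted together. The share therefore does not bear on the difference between the lines. The promoters of 3 of them are printed 5′ to 3′ with the matches in capitals to show where the letters stand, in coordinates of GRCm38.p6: Chac1 on chromosome 2 from 119350992 to 119351241 (forward strand), Slc7a11 on chromosome 3 from 50443614 to 50443863 (reverse strand) and Asns on chromosome 6 from 7693210 to 7693459 (reverse strand). The match of Chac1 begins 193 bases before the start, the first of the 2 of Slc7a11 begins 66 bases before it, and that of Asns begins 23 bases before it.
Chac1: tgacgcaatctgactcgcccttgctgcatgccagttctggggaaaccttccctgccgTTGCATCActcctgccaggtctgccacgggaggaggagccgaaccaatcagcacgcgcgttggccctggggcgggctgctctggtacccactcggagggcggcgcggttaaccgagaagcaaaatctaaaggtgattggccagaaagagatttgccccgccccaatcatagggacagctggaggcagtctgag
Slc7a11: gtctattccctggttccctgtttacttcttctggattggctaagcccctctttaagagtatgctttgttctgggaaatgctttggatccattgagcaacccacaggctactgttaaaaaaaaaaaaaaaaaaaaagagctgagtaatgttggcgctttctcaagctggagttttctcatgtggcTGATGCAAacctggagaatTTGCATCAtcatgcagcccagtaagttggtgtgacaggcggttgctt
Asns: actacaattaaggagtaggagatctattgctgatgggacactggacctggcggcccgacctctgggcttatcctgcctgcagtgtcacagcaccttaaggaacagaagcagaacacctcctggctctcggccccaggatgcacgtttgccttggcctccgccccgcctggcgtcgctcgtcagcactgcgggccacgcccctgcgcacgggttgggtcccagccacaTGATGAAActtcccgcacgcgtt
A match is a description of letters and no measurement of binding.

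**Figure D3:**
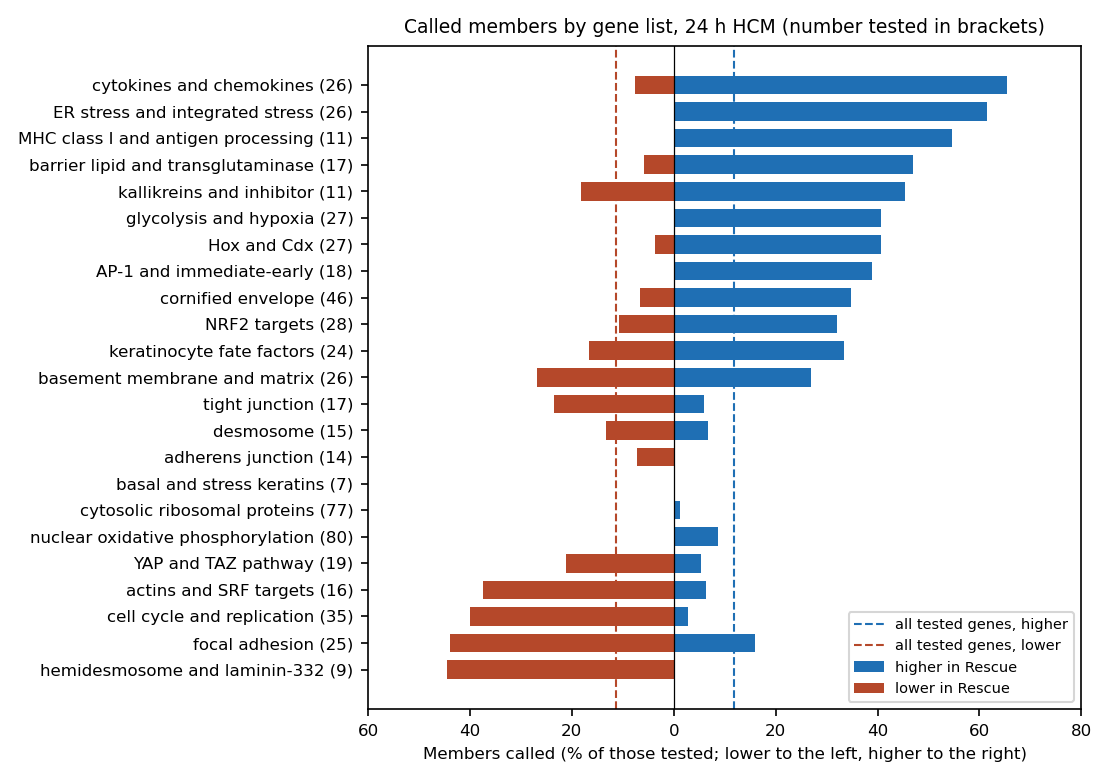
Share of the tested members of 23 gene lists called higher (bars to the right) or lower (bars to the left) in Rescue against WT at 24 h HCM, in percent; dashed lines mark the shares of all tested genes, 11.8% higher and 11.4% lower. Cytokines and stress genes reach furthest to the right, and hemidesmosome, focal adhesion and cell cycle genes furthest to the left.

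Secreted inflammatory signals were the list with the largest share of higher genes among those plotted. Of 26 tested cytokines and chemokines, 17 were higher and 2 lower, with a median log2 fold change of 1.02. Tslp, the epithelial cytokine that primes dendritic cells for type 2 responses, had 97.1, 75.6 and 74.6 CPM in Rescue and 4.43, 3.74 and 2.85 CPM in WT (4.49 ± 0.38, adjusted p = 4.64e-10, edgeR). Csf3, the granulocyte growth factor, had 28.9, 26.02 and 22.9 CPM against 2.47, 4.53 and 2.55 CPM (3.04 ± 0.27). Both were far above every WT library in every Rescue library. Il1a, an alarmin stored in keratinocytes, rose from a WT mean of 22.8 ± 2.73 CPM to 74.7 ± 4.56 CPM (1.71), and its antagonist Il1rn from 28.6 ± 5.54 to 57.8 ± 10.9 CPM (1.02). Lif (2.29), Il24 (1.41), the neutrophil chemokine Cxcl1 (1.103) and the alarmin Il33 (0.99) were also higher. Il36b (-0.79) and Cxcl14, a chemokine of resting epidermis (-0.52 ± 0.16, adjusted p = 0.0191, edgeR), were lower, the latter with an adjusted p between 0.0723 and 0.153 without Rescue replicate 2, Rescue replicate 3 or WT replicate 3 and of 0.11 without TMM factors. Both were lost with only the compared groups in the fit (0.0629 and 0.0618), and Cxcl14 also without the filter (0.0838) and in the edgeR exact test (0.0746). Il1b, at 1.02, was not called. Among receptors and ligands of the EGF family, 4 of 14 were higher and 1 lower, and the ligands Areg (1.88 ± 0.27), Epgn (1.83 ± 0.23) and Hbegf (1.299 ± 0.20) were among the higher ones.

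MHC class I molecules present peptides to CD8 T cells. Of 11 genes for MHC class I and antigen processing, 6 were higher and 0 lower (median 1.65). H2-D1 had 129, 125 and 105 CPM in Rescue and 25.1, 22.6 and 28.4 CPM in WT (2.23 ± 0.15, adjusted p = 5.40e-12, edgeR), and H2-K1 had 13.2, 10.4 and 10.2 CPM against 3.25, 3.09 and 3.67 CPM (1.75 ± 0.27). All Rescue values were above all WT values. B2m, the light chain of these molecules, was also higher (1.17). Class I genes are near-identical copies of each other, and how reads matching several of them were assigned is not stated beyond the removal of secondary alignments. Of 17 tested interferon-stimulated genes, 3 were higher and 2 lower, or 1 lower without Rescue replicate 1 (median 0.11). Among the 8 with at least 10 counts in each library 0 were higher (edgeR). Ddx58, which encodes the RNA sensor RIG-I, was lower, at 21.9, 20.7 and 18.98 CPM in Rescue and 76.3, 55.3 and 67.9 CPM in WT (-1.696 ± 0.21).

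Among immediate-early genes and AP-1 subunits, which relay growth factor and stress signals, 7 of 18 were higher and 0 lower (median 0.52). Egr3 (2.13 ± 0.44) and Dusp6, a phosphatase that limits ERK (1.12 ± 0.22), were higher, while Jun (0.27) was not called. Fosl1, which encodes FRA1, had 42.6, 47.3 and 33.6 CPM against 14.99, 28.7 and 19.3 CPM (0.98 ± 0.28), and its adjusted p was 0.00996, or 0.0698 without WT replicate 1.

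The cornified envelope is a shell of cross-linked proteins beneath the membrane of dying keratinocytes, and many of its genes stand in the epidermal differentiation complex on chromosome 3. Of 46 tested genes, 16 were higher and 3 lower, with a median of 0.78. Sprr2e, a small proline-rich protein, had 52.7, 47.5 and 42.04 CPM in Rescue and 4.64, 8.55 and 3.72 CPM in WT (3.09 ± 0.54, adjusted p = 8.51e-05, edgeR). Sprr2h rose from a mean of 234 ± 93.8 to 696 ± 42.1 CPM (1.57) and Sprr2b from 5.695 ± 3.24 to 24.6 ± 4.73 CPM (2.12). Sprr2d rose from 279 ± 99.6 to 789 ± 86.6 CPM (1.501 ± 0.47, adjusted p = 0.0195, edgeR), and its adjusted p was 0.0569 without Rescue replicate 1, 0.0686 without WT replicate 1 and 0.0907 without WT replicate 3. Crct1 (1.75), Lor, which encodes loricrin (1.63), and the late protease Casp14 (1.06) were higher as well. Ivl, which encodes involucrin, had 0.79 ± 0.27 (adjusted p = 0.0294, edgeR), and an adjusted p between 0.0576 and 0.0909 without any one library other than Rescue replicate 3. Members of the late cornified envelope (LCE) family did not move as one. Lce3c (1.66), Lce3d (1.47), Lce3e (1.12) and Lce3f (1.68) were higher, whereas Lce1f, at 2.94, 4.55 and 2.93 CPM in Rescue and 16.2, 19.97 and 18.3 CPM in WT (-2.38 ± 0.28), and Lce1c, at 3.002, 3.54 and 2.09 against 11.1, 15.3 and 12.03 CPM (-2.15 ± 0.34), were lower. The Sprr2 and Lce genes are close copies, so that reads could be split between them.

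AP-1 factors are known regulators of Sprr genes. The letters TGANTCA, which read the same on both strands, occurred within 250 bases before the start in 16 of the 43 tested cornified envelope genes with an entry (37.2%), in 3 of 16 cytokine genes with an entry (18.8%), in 4.79% of tested genes and in 6.75% of all promoters. The promoters of the Sprr2 genes described are shown for the position of the match, in capitals, which begins 193 to 198 bases before the start in each. All lie on the forward strand of chromosome 3 of GRCm38.p6: Sprr2b from 92316455 to 92316704, Sprr2d from 92338890 to 92339139, Sprr2e from 92351893 to 92352142 and Sprr2h from 92385435 to 92385684.
Sprr2b: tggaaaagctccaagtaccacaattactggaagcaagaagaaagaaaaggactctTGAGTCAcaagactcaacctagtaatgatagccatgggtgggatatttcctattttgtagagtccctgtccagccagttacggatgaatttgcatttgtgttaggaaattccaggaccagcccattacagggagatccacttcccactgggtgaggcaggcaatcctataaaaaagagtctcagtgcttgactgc
Sprr2d: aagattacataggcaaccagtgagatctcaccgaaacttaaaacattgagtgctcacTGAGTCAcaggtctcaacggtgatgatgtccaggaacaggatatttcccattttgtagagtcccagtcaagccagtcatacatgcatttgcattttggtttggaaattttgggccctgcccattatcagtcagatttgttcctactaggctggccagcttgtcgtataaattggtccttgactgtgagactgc
Sprr2e: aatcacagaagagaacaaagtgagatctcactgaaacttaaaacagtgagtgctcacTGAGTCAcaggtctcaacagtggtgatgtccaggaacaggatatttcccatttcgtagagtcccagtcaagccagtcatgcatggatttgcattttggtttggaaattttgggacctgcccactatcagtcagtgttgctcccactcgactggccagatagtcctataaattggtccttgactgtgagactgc
Sprr2h: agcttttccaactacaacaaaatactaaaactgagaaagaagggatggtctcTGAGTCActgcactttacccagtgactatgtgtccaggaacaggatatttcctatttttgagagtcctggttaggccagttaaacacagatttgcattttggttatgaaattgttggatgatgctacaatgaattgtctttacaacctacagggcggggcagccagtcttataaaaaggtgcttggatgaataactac
Position by position, Sprr2d and Sprr2e shared 88.0% of these bases and the other pairs 37.6% to 55.2%. Both motifs begin with the letters TGA, and overlap between them was not counted. Called and uncalled members were counted together here too, so these shares do not bear on the difference between the lines.

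In the list of barrier lipid and transglutaminase genes, 8 of 17 were higher and 1 lower (median 0.49), and 5 were higher without Rescue replicate 1 or without Rescue replicate 2. Asprv1, the protease that processes profilaggrin, had 910.1, 922 and 622 CPM in Rescue and 150.2, 166 and 130.1 CPM in WT (2.46 ± 0.28, adjusted p = 1.31e-07, edgeR). Tgm3, which cross-links envelope proteins, had 345, 353 and 257 against 69.3, 60.6 and 60.7 CPM (2.33 ± 0.20). Alox12b, a lipoxygenase of the lipid envelope, had 51.1, 61.8 and 36.8 against 15.9, 12.8 and 11.6 CPM (1.89 ± 0.28). Every Rescue library exceeded every WT library for these. Among kallikreins, the proteases that loosen cells at the skin surface, and their inhibitor, 5 of 11 genes were higher and 2 lower. Klk8 had 274, 279.7 and 245 CPM in Rescue and 28.95, 44.5 and 29.7 CPM in WT (2.95 ± 0.31), and Klk5 had 10.6, 12.2 and 9.09 against 0.567, 1.58 and 1.48 CPM (3.15 ± 0.39). Klk14, at 1.62, 2.12 and 0.994 against 14.7, 12.1 and 12.5 CPM (-3.06 ± 0.26), and Klk12 (-1.97 ± 0.37) were lower.

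Keratins, the intermediate filaments of epithelia, differed by class. None of the 7 basal and stress keratins was called (edgeR), and their log2 fold changes lay between -0.30 and 0.13, with Krt5 at 0.12 and Krt14 at -0.26. Of 6 keratins of simple epithelia, 3 were higher. Krt7 (chromosome 15, 101308924 to 101328194, forward strand) had 229, 210.4 and 212 CPM in Rescue and 6.23, 6.25 and 7.9 CPM in WT (4.996 ± 0.26, adjusted p = 8.76e-14, edgeR), Krt23 had 92.1, 104 and 54.1 against 11.1, 9.84 and 8.66 CPM (3.08 ± 0.33) and Krt8 had 9.06, 7.93 and 7.85 against 2.01, 2.23 and 1.99 CPM (1.995 ± 0.51). The lines were fully apart in each of these. Of 6 suprabasal keratins, 2 were higher and 1 lower (median 0.72). Krt80 was the lower one, a call lost in the edgeR exact test (-0.589, adjusted p = 0.0808). It was also lost without TMM factors, with only the compared groups in the fit, and without Rescue replicate 3 or WT replicate 1. The mucosal Krt4 had 129, 139 and 67.1 against 8.45, 5.604 and 8.56 CPM (3.88 ± 0.28). Krt1, the first keratin of spinous cells, had 19.2, 20.3 and 11.8 against 5.15, 8.55 and 6.73 CPM (1.33 ± 0.48, adjusted p = 0.0452, edgeR). Its adjusted p lay between 0.0566 and 0.151 without each of 5 libraries, Rescue replicate 3 excepted.

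**Figure D4:**
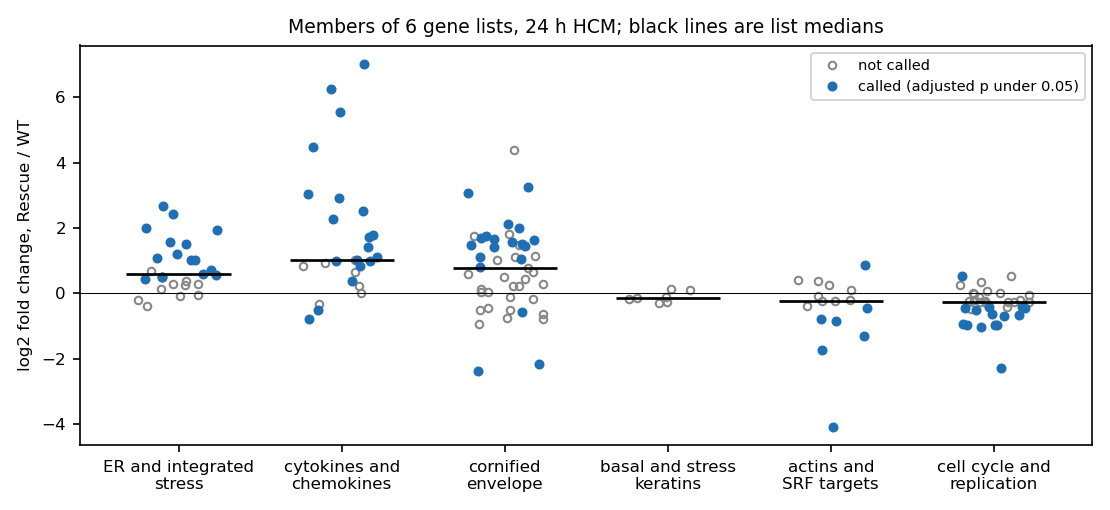
log2 fold changes of Rescue against WT at 24 h HCM for the tested members of 6 gene lists; filled points were called at an adjusted p under 0.05, open points were not, and black lines are list medians. Stress genes and cytokines lie mostly above 0, basal and stress keratins lie near 0, and called cell cycle genes lie below 0 except Cdc20.

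Of 14 adherens junction genes, 0 were higher and 1 lower (median -0.19). E-cadherin's Cdh1 was at 0.08, Cdh3 at -0.20 and Ctnnb1 at -0.15, none of them called. The list leaves out the classical cadherin Cdh6, described above as far lower in Rescue. The lower gene of the list was Jup, which encodes plakoglobin, a catenin of adherens junctions and desmosomes. It had 1491, 1533 and 1134 CPM in Rescue and 1953, 2339.7 and 1933 CPM in WT (-0.58 ± 0.20, adjusted p = 0.0294, edgeR), with an adjusted p of 0.151 without Rescue replicate 3 and 0.121 without WT replicate 2. Its call was also lost without the filter (0.076), with only the compared groups in the fit (0.0663) and in the edgeR exact test (0.082). In DESeq2 and with at least 10 counts in each library, 2 genes were lower, as Ctnna1 gained a call (adjusted p = 0.0149 in DESeq2 and 0.0493 in edgeR). In the p120-catenin family itself, 2 of 6 genes were higher and 0 lower, Pkp4 being kept out of the list. The number higher was 1 without the filter and without any one library other than WT replicate 3. Arvcf, a close relative of PKP4, had 23.1, 20.6 and 21.1 CPM in Rescue and 7.16, 7.97 and 8.97 CPM in WT (1.43 ± 0.16, adjusted p = 6.82e-08, edgeR), a full separation of the lines. Ctnnd1, which encodes p120-catenin, had -0.34 and was not called.

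Of 15 desmosome genes, 1 was higher and 2 lower, or 1 lower without Rescue replicate 3 and 4 lower in DESeq2. In the main fit 20% were called, against 23.2% of all tested genes. Dsc2, a desmosomal cadherin, had 8.08, 11.8 and 6.91 CPM in Rescue and 43.01, 23.7 and 26.6 CPM in WT (-1.802 ± 0.37, adjusted p = 0.000533, edgeR). Pkp2 (1.24 ± 0.41) was the higher one, at 1.74 ± 0.0485 CPM against 0.728 ± 0.121 CPM, and its adjusted p of 0.0278 rose to between 0.0569 and 0.0861 without any one of Rescue replicates 1 to 3, WT replicate 1 and WT replicate 2. Dsp (0.05), Pkp1 (-0.01) and Pkp3 (0.10) were not called. Among 17 tight junction genes, 1 was higher and 4 were lower, and 2 were lower without Rescue replicate 3, WT replicate 2 or WT replicate 3. Cldn1, the claudin on which the epidermal barrier depends, had 94.1, 88.1 and 90.98 CPM against 209, 131 and 169 CPM (-0.90 ± 0.19), and Cgn, cingulin, which binds junctional myosin, had 22.5, 28.03 and 22.1 against 57.1, 52.4 and 53.8 CPM (-1.17 ± 0.23). Its relative Cgnl1, paracingulin, was higher (2.29 ± 0.57). In gap junctions, 2 of 6 connexin genes were higher and 3 lower, with a median of 0.01 and a lowest value of -0.98. The higher ones were Gjb2, at 48.4, 53.2 and 45.02 CPM against 13.4, 14.2 and 9.12 CPM (1.999 ± 0.21), and Gja1 (0.78 ± 0.12).

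ROCK and myosin are the machinery through which cells pull on their junctions. Rhoa (-0.15), Cdc42 (0.01), Rock1 (-0.34), Rock2 (0.20) and the myosin heavy chain Myh9 (0.20) gave no call. Limk1, the kinase through which ROCK inactivates cofilin, had 12.1, 14.1 and 13.7 CPM in Rescue and 28.4, 35.3 and 31.4 CPM in WT (-1.25 ± 0.20, adjusted p = 2.84e-05, edgeR). The formin Diaph1 was lower as well (-0.92 ± 0.15), and the non-muscle myosin Myh14 was higher (1.21 ± 0.26). Among 15 GEFs and GAPs, which switch small GTPases on and off, 2 were higher and 2 lower. The share called was 26.7%, against 23.2% of all tested genes. Arhgap24, a Rac-directed GTPase-activating protein, had 13.4, 11.5 and 11.2 CPM against 1.96, 0.79 and 1.58 CPM (3.03 ± 0.32), and Arhgef2, which encodes the RhoA activator GEF-H1, had 36.5, 38.98 and 28.5 against 21.7, 19.9 and 21.6 CPM (0.72 ± 0.14). The GAPs Stard13 (-2.33 ± 0.28) and Dlc1 (-1.401 ± 0.22) were lower. Ect2 (-0.29), Arhgap21 (-0.27), Arhgap23 (-0.33) and Racgap1 (-0.28) were not called.

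In the list of actins and SRF targets, genes that respond to the pool of free actin, 1 of 16 was higher and 6 were lower. Acta2, smooth muscle actin (chromosome 19, 34217737 to 34232990, reverse strand), had 3.87, 3.75 and 4.52 CPM in Rescue and 54.8, 83.6 and 67.9 CPM in WT (-4.08 ± 0.39, adjusted p = 4.16e-09, edgeR). Cnn2, calponin 2, had 11.3, 10.6 and 8.099 CPM against 29.002, 33.1 and 38.1 CPM (-1.74 ± 0.22). Neither overlapped between the lines. Tpm2 (-0.84) was lower and Tpm1 was higher (0.85 ± 0.15). Actb ranged from 1236 to 5146 CPM within WT alone, WT replicate 2 being the highest, and neither Actb (-0.39) nor Actg1 (-0.21) was called. Of 19 YAP and TAZ pathway genes, 1 was higher and 4 were lower, or 1 lower without TMM factors. In the main fit 26.3% of them were called, against 23.2% of all tested genes. Ccn2, a target that reads tension and TGF-beta, had 15.99, 18.2 and 18.1 CPM against 144, 87.2 and 158 CPM (-2.896 ± 0.36), a full separation, while Ccn1 had -0.24 and was not called. Among Arp2/3 and WASP/WAVE genes, 0 of 19 were higher and 3 lower. The number lower was 1 without Rescue replicate 3 or WT replicate 2, and 0 without the filter, with only the compared groups in the fit and in the edgeR exact test.

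Of 25 focal adhesion genes, 4 were higher and 11 lower, although 5 were lower without TMM factors and 7 without WT replicate 3. Tns3 (-1.32), Tns2 (-1.76 ± 0.31), Fermt2, which encodes kindlin-2 (-2.004 ± 0.52), and Lims2 (-2.02 ± 0.44) were lower, Ptk2b, the kinase PYK2, was higher (1.47), and vinculin's Vcl (-0.19), Pxn (0.07) and Zyx (0.01) were not called. Of 9 genes of hemidesmosomes and laminin-332, 0 were higher and 4 lower. Lamb3 had 85.5, 97.6 and 102 CPM in Rescue and 163, 147 and 215 CPM in WT (-0.88 ± 0.18, adjusted p = 0.000553, edgeR). Without TMM factors 2 of the 4 were called. In basement membrane and matrix genes, 7 of 26 were higher and 7 lower, and 3 or 4 were higher without Rescue replicate 2, WT replicate 2 or WT replicate 3. The higher ones included Col1a1 (34, 56 and 3 reads in Rescue against 2, 0 and 0) and Col3a1 (17, 74 and 0 against 0, 1 and 0), both also fibroblast markers. The call of Col1a1 was lost without Rescue replicate 2, WT replicate 2 or WT replicate 3 (adjusted p = 0.0747 to 0.0891, edgeR). That of Col3a1 was lost without any one library other than Rescue replicate 3 (0.0619 to 0.256), without TMM factors (0.0532), with a replicate block (0.0744) and in DESeq2 (0.239). The collagen IV chains Col4a1, at 4.45, 4.02 and 2.53 against 13.4, 13.7 and 16.8 CPM (-1.997 ± 0.30), and Col4a2, at 8.72, 6.88 and 6.21 against 35.3, 32.9 and 40.8 CPM (-2.32 ± 0.28), were lower in every Rescue library, as were fibronectin's Fn1 (-1.35 ± 0.30) and Thbs1 (-1.59 ± 0.43). Of 14 metalloproteinases and inhibitors, 2 were higher and 4 lower, with Timp1 at -1.98 ± 0.32. Without Rescue replicate 1, Rescue replicate 2, WT replicate 1 or WT replicate 2, 1 was higher.

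Of 35 cell cycle and replication genes, 1 was higher and 14 lower (median -0.27), and 6 were lower without TMM factors. Ccne2, which drives entry into S phase, had 4.91, 3.702 and 6.86 CPM in Rescue and 34.4, 17.8 and 23.2 CPM in WT (-2.28 ± 0.37, adjusted p = 2.81e-05, edgeR). Mcm7, a helicase subunit, had 81.98, 73.6 and 79.95 against 153, 147 and 176 CPM (-1.01 ± 0.11). Pcna (-0.95) and E2f1 (-0.97 ± 0.20) were lower, while the mitotic genes Ccnb1 (0.36) and Aurkb (-0.25) were not called and Cdc20 was higher (0.53). Mki67 had -0.49 and was not called. Cdkn1c, which encodes the cell cycle inhibitor p57, had 11.9, 12.6 and 8.298 CPM against 1.03, 0.431 and 0.917 CPM (3.74 ± 0.33). Its list of p53 targets and cell cycle inhibitors had 5 of 25 higher and 2 lower. This is 28% called, against 23.2% of all tested genes. The number lower was 1 without Rescue replicate 3 or WT replicate 3.

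In energy metabolism, 11 of 27 glycolysis and hypoxia genes were higher and 0 lower (median 0.41). Vegfa, the endothelial growth factor (chromosome 17, 46327919 to 46343309, reverse strand), had 39.7, 45.3 and 31.5 CPM in Rescue and 5.51, 5.25 and 6.27 CPM in WT (2.77 ± 0.31, adjusted p = 7.94e-08, edgeR). Car12, a carbonic anhydrase, had 26.04, 25.7 and 29.02 CPM against 5.82, 3.88 and 3.21 CPM (2.64 ± 0.19). The glycolytic enzymes Hk2 (1.37) and Eno1 (0.98) were higher as well. Among NRF2 targets, which defend against oxidants, 9 of 28 were higher and 3 lower. Txnrd1, which reduces thioredoxin, had 65.1, 73.7 and 60.6 CPM against 22.98, 17.1 and 23.5 CPM (1.65 ± 0.29), with every Rescue library above every WT library. Of 31 genes of cholesterol and fatty acid synthesis, 1 was higher and 5 lower, with Nsdhl at -1.14 ± 0.17, and 3 were lower without TMM factors or without any one of Rescue replicates 1 to 3, WT replicate 2 and WT replicate 3. Cytosolic ribosomal proteins (1 of 77 called) and nuclear genes of oxidative phosphorylation (7 of 80 higher, 2 to 3 without Rescue replicate 1, Rescue replicate 2, WT replicate 1 or WT replicate 2) both had a median of -0.26, which was 0.44 and 0.28 without WT replicate 2.

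Hox genes keep the body position at which a cell arose. Of 27 tested Hox and Cdx genes, 11 were higher and 1 lower (median 1.36). Hoxb7 had 13.6, 9.36 and 10.4 CPM in Rescue and 0.927, 1.22 and 0.765 CPM in WT (3.53 ± 0.26, adjusted p = 6.01e-11, edgeR), Hoxb2 had 3.12, 3.02 and 2.58 against 0.309, 0.216 and 0.612 CPM (2.87 ± 0.37), and Hoxd8 had 0.404, 0.106 and 0.398 against 2.73, 2.52 and 2.34 CPM (-3.04 ± 0.42). The filter used all 12 groups, so that a gene could be tested through libraries outside this comparison. With only the compared groups in the fit, 16 were tested, 8 higher and 1 lower (median 1.09). Of the 7 with at least 10 counts in each library, 4 were higher. In the PKP4-KO libraries at 24 h HCM, Hoxb7 had 15.3 ± 4.92 and Hoxb2 13.7 ± 1.35 CPM. Of 24 keratinocyte fate factors, 8 were higher and 4 lower, or 1 lower without TMM factors and 2 without Rescue replicate 3 or WT replicate 1. Tfap2c had 6.47, 6.56 and 5.76 CPM against 0.412, 0.503 and 0.815 CPM (3.41 ± 0.30), Gata3 had 9.64, 8.78 and 8.199 against 0.721, 2.01 and 0.968 CPM (2.87 ± 0.43), and Sox9, a factor of hair follicle cells, had 16.3, 20.3 and 14.6 against 40.2, 42.5 and 40.6 CPM (-1.27 ± 0.19). Trp63, the master factor of stratified epithelia, had 0.36 and was not called.

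Other signal pathways gave mixed directions. The shares called were 30.4% for TGF-beta and BMP, 28% for Wnt, 28.6% for Notch and 30.6% for ephrins, semaphorins and plexins. Of all tested genes 23.2% were called. In the TGF-beta and BMP list, 4 of 23 were higher and 3 lower, with Id2 at 25.3, 19.6 and 28.2 CPM in Rescue and 99.9, 101 and 113 CPM in WT (-2.101 ± 0.24, adjusted p = 1.16e-07, edgeR). The Wnt list had 2 of 25 higher, or 1 without Rescue replicate 1, Rescue replicate 2, WT replicate 1 or WT replicate 2, and 5 lower, or 3 lower without TMM factors, Rescue replicate 2 or WT replicate 3, with the target Axin2 at -1.98 ± 0.48. Notch genes had 2 of 14 higher and 2 lower. The count was 1 higher without Rescue replicate 1, Rescue replicate 2 or WT replicate 2, and 1 lower without Rescue replicate 1, Rescue replicate 3, WT replicate 1 or WT replicate 3, but 3 without WT replicate 2. Named members were Jag2 at 0.97 ± 0.18 and Lfng at -1.19 ± 0.16. Of 22 calcium handling genes, 6 were higher and 3 lower. Among them, Calm4, a calmodulin-like protein of epidermis, had 772, 745 and 511 CPM against 166, 287 and 148 CPM (1.75 ± 0.38), and the store-operated channel Orai1 had 13.9, 17.6 and 13.6 against 23.5, 28.8 and 33.5 CPM (-0.93 ± 0.17). Of 36 ephrins, semaphorins and plexins, 5 were higher and 6 lower, the higher ones falling to between 1 and 3 without Rescue replicate 1, Rescue replicate 2, WT replicate 2 or WT replicate 3. Efna3 was the lowest of the named ones (-1.37 ± 0.21). EMT regulators and markers (1 of 10 higher, 3 lower), integrins (2 of 14 higher, or 1 without Rescue replicate 1, Rescue replicate 2, WT replicate 2 or WT replicate 3, and 3 lower) and S100 genes (0 of 13 higher, 3 lower, or 1 lower without Rescue replicate 2 or WT replicate 2) completed the lists.

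The same lines were compared in the other culture conditions, with libraries that are not shared with the comparison at 24 h HCM. At 24 h LCM, 97.2% of the 1785 higher genes and 96.1% of the 1718 lower genes had the same direction, against 73.9% of all tested genes. At 72 h HCM the shares were 85.8% and 79.6%, against 66.2% of all. At 72 h LCM, where 32.4% of all tested genes were called, they were 91.8% and 87.0%, against 69.0%. Called in the same direction in all 4 conditions were 775 higher and 485 lower genes. Krt7 (4.76 and 5.65), Trib3 (3.07 and 2.24), Vegfa (3.07 and 2.25), Txnip (-6.74 and -4.10) and Acta2 (-3.27 and -4.301) kept their directions, given as log2 fold changes at 24 h LCM and 72 h HCM. Cytokine genes were higher in 17 of 26 cases at 24 h LCM and in 5 at 72 h HCM, where 19.5% of all tested genes were called higher, and 13.5% at 24 h LCM.

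Few genes were called for a difference of this comparison with the calcium of the medium. A test of the difference between 24 h HCM and 24 h LCM called 10 of 15114 genes (0.0662%), 2 with a larger value in HCM (0.0132%) and 8 with a smaller one (0.0529%), and 984 had an unadjusted p below 0.05. DESeq2 called 50. Aqp5, a water channel, had 1.16, 1.27 and 0.696 CPM in Rescue and 10.9, 21.4 and 13.96 CPM in WT at 24 h HCM, and means of 0.7296 ± 0.342 and 0.642 ± 0.276 CPM at 24 h LCM. Krt15, a keratin of basal cells, had means of 38.2 ± 5.08 CPM in Rescue and 41.9 ± 5.27 CPM in WT in HCM, and 34.5 ± 11.97 and 7.03 ± 0.926 CPM in LCM. The metalloproteinase Mmp2 went the other way, with 2.25 ± 0.452 CPM in Rescue and 0.544 ± 0.0647 CPM in WT in HCM, and 0.799 ± 0.226 and 1.03 ± 0.1295 CPM in LCM.

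More genes were called for a difference with time. Between 24 h HCM and 72 h HCM, the difference of Rescue against WT was called for 1583 genes (10.5%), 721 with a larger and 862 with a smaller value at 24 h, and 3860 had an unadjusted p below 0.05. The count was 926 without Rescue 72 h HCM replicate 2, 1047 without Rescue 72 h HCM replicate 1, 1018 without WT 72 h HCM replicate 3 and 907 without WT 24 h HCM replicate 1. Ccl20, near absent in WT at 24 h, had means of 1.21 ± 0.459 CPM in Rescue and 2.18 ± 0.418 CPM in WT at 72 h. Sgk1, a kinase induced by glucocorticoids and cell shrinkage, was lower in Rescue at 24 h (11.8, 9.89 and 9.29 against 40.2, 31.5 and 40.4 CPM), while its means at 72 h were 36.5 ± 5.51 CPM in Rescue and 19.7 ± 3.39 CPM in WT. Among the lists, the difference was called with a larger value at 24 h for 11 of 46 cornified envelope genes, 9 of 26 cytokine genes and 9 of 28 NRF2 targets, and with a smaller one for 16 of 31 genes of cholesterol and fatty acid synthesis and 11 of 27 of glycolysis and hypoxia, against 4.77% and 5.70% of all tested genes.

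Rescue cells differed from PKP4-KO cells at 24 h HCM in 6160 genes (40.8%), and PKP4-KO from WT cells in 6472 (42.8%). These comparisons share libraries with that of Rescue and WT, so that values are set side by side without a count of agreement. The following genes were chosen after their values were seen. Mean levels in WT, PKP4-KO and Rescue were 68.8 ± 14.4, 0.649 ± 0.441 and 4.05 ± 0.414 CPM for Acta2, and 129.7 ± 37.5, 0.984 ± 0.0785 and 17.4 ± 1.24 CPM for Ccn2. In Cldn1 they were 169.7 ± 38.95, 7.27 ± 0.757 and 91.1 ± 3.001 CPM. These genes were lowest in PKP4-KO, and Rescue lay between the others. Krt7 had 6.79 ± 0.957, 10.7 ± 1.97 and 217 ± 10.3 CPM, Tslp 3.67 ± 0.7899, 2.703 ± 0.669 and 82.4 ± 12.7 CPM, and Trib3 23.6 ± 3.93, 56.8 ± 0.867 and 149.9 ± 37.5 CPM, with Rescue above both other lines. Evc2 (0.168 ± 0.131, 16.8 ± 1.37 and 14.9 ± 2.37 CPM) and Xlr3b (0.236 ± 0.0843, 12.6 ± 2.88 and 10.6 ± 1.399 CPM) were high in PKP4-KO and Rescue alike and near absent in WT.

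Called genes were not spread evenly along the genome. On chromosome X, 23.5% of 481 tested genes were lower in Rescue (median -0.40), and on chromosome 5 26.0% of 973 (median -0.34), against 11.4% of all tested genes. Segments were outlined after their values had been seen, and their medians are descriptions. On chromosome 4, 98 of 241 genes from Tmem68 to Slc46a2 (3549038 to 59915063, GRCm39) were lower and 11 higher (median -0.60), whereas 90 of 245 from Srrm1 to Samd11 (135046676 to 156341182) were higher and 6 lower (median 0.43). The medians at 24 h LCM were -0.58 and 0.53, and in PKP4-KO against WT -0.09 and 0.45.

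A cluster of zinc finger genes on chromosome 2 (174934557 to 177720294, GRCm39) was nearly silent in Rescue. Of its 35 tested genes, 0 were higher and 25 lower, with a median of -4.56, and the median was -5.23 in PKP4-KO against WT. Gm14326 had 0, 0 and 2 reads in the Rescue libraries and 117, 40 and 63 in WT, Gm14295 had 8, 0 and 1 against 147, 104 and 103, and Gm14325 had 1, 1 and 2 against 93, 54 and 57. The genes are near-identical copies, and how reads were shared out among them is uncertain. Around Pkp4 (56996842 to 60793855), 1 of 18 genes was higher and 2 were lower in Rescue (median -0.08), while the median in PKP4-KO against WT was -1.34. In the epidermal differentiation complex on chromosome 3 (92029511 to 93474510), 16 of 57 genes were higher and 4 lower in Rescue (median 0.65), with a median of 0.09 at 24 h LCM and 0.02 at 72 h HCM. The cause of these regional differences was not tested.

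**Figure D5:**
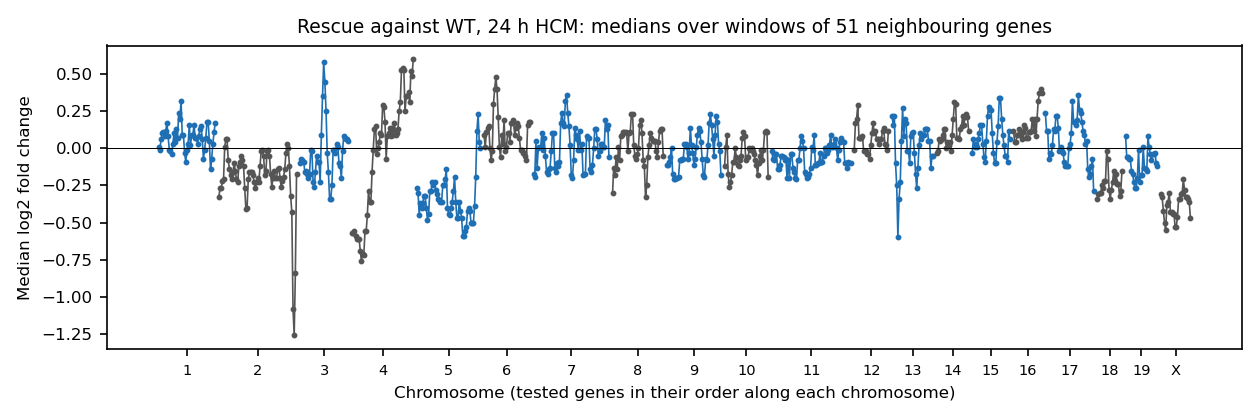
Median log2 fold change of Rescue against WT at 24 h HCM in windows of 51 neighbouring tested genes, in gene order along each chromosome, with chromosomes in alternating colours. The lowest window (-1.26) holds the zinc finger cluster of chromosome 2, chromosome 4 runs from below to above 0, and windows of chromosome X and most of those of chromosome 5 lie below 0.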

How the data were processed

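The authors sequenced stranded poly(A) RNA in paired ends, aligned reads with HISAT2 2.1.0 to mm39 plus the GFP-PKP4 sequence, used SAMtools 1.10 to drop secondary alignments, and counted reads per gene with featureCounts 2.0.0 on the Ensembl annotation of GRCm39. The strand and multimapper options of the counting are not given in the sources used here. The deposited counts are whole reads per gene, not normalized, for 55358 genes in 36 libraries. Library totals at 24 h HCM lay between 15520849 and 18295615. Counting intervals and floors of 3 counts cover counting error only.

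Groups came from the labels. Genes were filtered with filterByExpr and scaled with TMM, which left 15114. edgeR 4.0.16 (R 4.3.3) fitted 12 group means over 36 libraries, with 24 residual degrees of freedom, and its quasi-likelihood test was adjusted after Benjamini-Hochberg with a threshold of 0.05. The fit was also run on simulated counts drawn with the dispersions it had estimated, which cannot show how well the model fits these libraries. Unless stated otherwise, values after a gene name are log2 fold changes of Rescue against WT at 24 h HCM, with SE after ±, and adjusted p-values come from this test; levels are CPM, ± SD with n = 3. CPM levels are not scaled by gene length and are compared between lines only.

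The text names Pkp4 and its transgene, the 12 highest and 12 lowest protein-coding genes (called, averaging 1 CPM or more, without overlap), up to 4 called members of a list with the largest differences, genes of proteins the study names, and 4 genes on either side of each difference between conditions. Some genes and 1 list that this rule names are not reported here. Other list members were chosen for naming after their values were seen. The comparison and the gene lists were chosen with earlier results of these data known. Alternatives were no TMM factors, no filter, at least 10 counts, a replicate block, only the compared groups, the edgeR exact test, DESeq2 1.42.0 and leaving out single libraries. Promoters are RefSeq's, 250 bases before each start in GRCm38.p6, matched by symbol; other coordinates are GRCm39.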

Additional observations from a re-analysis of the deposited data

Results flagged for a closer look

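The difference of Rescue against WT was not the same in all conditions. It was tested as 24 h HCM minus 24 h LCM, which called 10 genes (2 positive, 8 negative), and as 24 h HCM minus 72 h HCM, which called 1583 (721 positive, 862 negative; edgeR's quasi-likelihood test, adjusted over 15114 genes). The 24 h HCM libraries enter both tests, which are therefore not independent. All values in the next paragraphs are differences of log2 fold changes, and a negative one says that Rescue was lower relative to WT at 24 h HCM than in the other condition.

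Against 24 h LCM, the difference was 2.411 for Mmp2, a gelatinase, and 1.044 for Id3, an inhibitor of helix-loop-helix factors, and it was -1.579 for Tnfaip2, -2.427 for Krt15, -4.017 for Aqp5 and -1.823 for Rgma, a ligand and BMP co-receptor. Tnfaip2 was higher in Rescue in both media, with log2 fold changes of 2.59 in HCM and 4.17 in LCM. Rgma had -1.90 in HCM and -0.07 in LCM. Krt15 and Aqp5 differed in where WT was high, as their levels in the report show.

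Against 72 h HCM, the difference was 2.217 for Id3, 3.046 for Robo3, a receptor of axon guidance, 3.426 for Ms4a10 and 7.87 for Ccl20, and it was -2.118 for Klra4, -1.802 for Suox, sulfite oxidase, -2.128 for Csrnp1, a nuclear protein, and -2.745 for Sgk1. Id3, Ms4a10 and Ccl20 were higher in Rescue at 24 h and lower at 72 h by log2 fold change (1.04 and -1.18 for Id3, 1.40 and -2.03 for Ms4a10). Csrnp1 went from -0.68 at 24 h to 1.45 at 72 h.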

How the results depend on the processing

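Over the alternatives that kept all libraries, 2491 to 3963 genes were called between Rescue and WT, and 2624 to 2998 when 1 library was left out. Without TMM factors 959 genes were lower and 1876 higher. Rescue and PKP4-KO differed in 5015 to 6507 genes. Endogenous Pkp4 stayed between -2.68 and -2.52. The difference between 24 h HCM and 24 h LCM was called for 5 genes without the filter, 50 by DESeq2 and 0 with only the compared groups in the edgeR fit (984 genes had an unadjusted p below 0.05 with all groups), and for 4 to 9 when 1 library was left out. It fell to 4 without Rescue 24 h HCM replicate 1 or Rescue 24 h LCM replicate 2. The difference between 24 h HCM and 72 h HCM was called for 876 genes without the filter and for 907 to 1927 when 1 library was left out, the lowest without WT 24 h HCM replicate 1. The cause of these changes was not tested. Leaving out a library also leaves fewer libraries in the fit. The edgeR exact test gives no value for these differences. DESeq2 left 12 adjusted p-values of the main comparison as NA.

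Some genes that were not called changed sign. Pkp1 had 0.109 without TMM factors, 0.016 without the filter and 0.034 with at least 10 counts, and Rac1 had 0.106, 0.025 and 0.043. When 1 library was left out, Pkp1 lay between -0.047 and 0.041, Rac1 between -0.08 and 0.089, Cdc42 between -0.044 and 0.064, Zyx between -0.06 and 0.096, Dsp between -0.157 and 0.332, Ctnnb1 between -0.344 and 0.008, Rock1 between -0.66 and 0.187, Ect2 between -0.514 and 0.031, Pxn between -0.01 and 0.197, Cdh1 between -0.018 and 0.146, Ctnnd1 between -0.504 and 0.013 and Actb between -0.724 and 0.538. No called gene among those named reversed in the alternatives run. With all libraries kept, 85 of 1758 results for single genes lost their call and 2 gained one. With 1 left out, 117 of 1548 lost it.

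Replicate numbers are shared between groups, but same-numbered Rescue and WT libraries did not deviate together (correlations of -0.14, -0.363 and -0.396), so the numbers were taken as names. With a replicate block, 3421 genes were called, 1759 higher and 1662 lower, 10 and 1493 for the differences from 24 h LCM and 72 h HCM, 6088 between Rescue and PKP4-KO, and Pkp4 had -2.63. Of the genes the report describes, Krt1 (adjusted p = 0.0539) and Col3a1 (0.0744, edgeR) lost their calls under the block. No Rescue library correlated best with the WT library of its own number. Reads limit genes near the floor of 0.149 to 0.216 CPM, such as Hoxd8 in Rescue.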
